A study of Mus musculus domesticus and Mus musculus molossinus with 8 samples.

Results

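The heat shock protein and DnaJ families are the core of the cell's protein-folding machinery. Members were the genes whose symbol begins with Hsp followed by a letter from a to h or a digit, or with Dnaja, Dnajb or Dnajc, leaving out Hspg2 and Hspbap1. The rule found 73 of the 23284 genes in the deposited tables, 28 with an Hsp symbol and 45 with a Dnaj symbol. It used names only, but it was set with earlier results of these data known.

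HSP70 proteins bind unfolded stretches of protein and release them in a cycle driven by ATP. DnaJ proteins, also called HSP40, bring the client to HSP70 and trigger ATP cleavage through their J domain, and HSP110 proteins such as Hsph1 exchange the nucleotide. HSP90 acts later on client proteins that include steroid receptors and kinases, small heat shock proteins hold aggregating proteins, and the cytosol, the endoplasmic reticulum and the mitochondrion each have their own set. In stressed cells the transcription factor HSF1 raises the cytosolic genes Hspa1a, Hspa1b, Hsph1 and Dnajb1, while unfolded protein in the endoplasmic reticulum raises Hspa5, which encodes BiP.

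Polyadenylated RNA was sequenced from 4 mice, 8 weeks old, with liver and thymus taken from each animal. The groups were MSM mice given 1.5 µg MegaFasL into the peritoneum, untreated MSM mice, B6 mice given the same injection and untreated B6 mice, with 1 mouse in each. MegaFasL is a recombinant Fas ligand in oligomeric form, which activates the Fas death receptor on the cell surface, MSM (MSM/Ms) is an inbred strain derived from Japanese wild mice, and B6 is the common laboratory strain C57BL/6. The untreated mice received no injection, so the agent and the act of injecting cannot be told apart, and the time between injection and harvest is not given in the sources used here.

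Values are FPKM, fragments scaled to transcript length and library size, which can be compared between genes. From the steps between low values, about 1.54 to 1.76 fragments stood behind each FPKM and kilobase in liver libraries and 2.76 to 3.36 in thymus libraries. A single fragment on a transcript of 2 kb was therefore worth 0.307 to 0.351 FPKM in liver and 0.161 to 0.196 FPKM in thymus. The labels held for the organs: all 16 hepatocyte markers in the tables rose in liver against thymus, and all 15 thymocyte markers fell. The untreated MSM thymus stood apart from the other thymi. Its summed hepatocyte markers came to 3837 FPKM against 69.1 to 272 FPKM in the other thymi, its airway markers to 1181 against 20.8 to 30.6 FPKM, and its skeletal and smooth muscle markers to 252 against 21.3 to 30.9 FPKM. In the untreated B6 liver the Kupffer cell and macrophage markers summed to 449 FPKM and the thymocyte markers to 49.4 FPKM, against 78.0 to 212 FPKM and 6.70 to 10.6 FPKM in the other livers. In bulk tissue, fewer cells of a type and less RNA per cell cannot be told apart.

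Some of these chaperones carry a short stretch of sequence at their end that bears on where or with what they act. The results are ordered by the compartment or class assigned to each member, not by that ending. The main cytosolic HSP70 and HSP90 proteins end in the residues EEVD, to which co-chaperones dock, and several chaperones of the endoplasmic reticulum end in KDEL, the signal that returns them there. The last 14 codons before the stop are shown for 8 members, 5′ to 3′ on the coding strand from the GENCODE M21 annotation of mm10, with the codons of that ending in capitals.
Hspa1b: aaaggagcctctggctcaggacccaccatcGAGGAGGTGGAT
Hspa1a: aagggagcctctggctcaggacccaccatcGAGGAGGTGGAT
Hspa8: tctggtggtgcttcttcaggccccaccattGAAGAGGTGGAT
Hsp90aa1: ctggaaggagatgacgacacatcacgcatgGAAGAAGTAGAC
Hsp90ab1: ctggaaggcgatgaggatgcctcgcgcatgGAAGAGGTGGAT
Hspa5: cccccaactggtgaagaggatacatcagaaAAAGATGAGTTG
Hsp90b1: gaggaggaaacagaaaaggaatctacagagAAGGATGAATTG
Dnajc10: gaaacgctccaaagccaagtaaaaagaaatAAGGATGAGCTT
Of the 73 members, 7 ended in EEVD and 3 in KDEL. Among the 18443 other genes with a coding sequence, 1 ended in EEVD and 7 in KDEL.

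The J domain of DnaJ proteins carries the tripeptide HPD, which is needed to stimulate HSP70. The 3 HPD codons are in capitals below, with 7 codons on each side, for members whose level the results turn on.
Dnajb1: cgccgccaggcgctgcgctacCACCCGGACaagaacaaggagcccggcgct
Dnaja1: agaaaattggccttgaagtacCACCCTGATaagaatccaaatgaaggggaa
Dnaja3: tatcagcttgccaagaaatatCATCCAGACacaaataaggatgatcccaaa
Dnajb2: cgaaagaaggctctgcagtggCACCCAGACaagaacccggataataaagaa
Dnajc22: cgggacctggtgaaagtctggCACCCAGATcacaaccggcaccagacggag
Dnajc6: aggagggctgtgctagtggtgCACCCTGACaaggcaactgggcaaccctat
Dnajc9: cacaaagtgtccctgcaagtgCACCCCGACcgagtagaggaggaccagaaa
Dnajc7: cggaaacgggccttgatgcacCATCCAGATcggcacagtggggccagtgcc
HPD was encoded by 44 of the 45 Dnaj members, with Dnajb13 the exception, and by 5.5% of the other genes. It lay in the first 100 residues of 30 members, such as residue 32 of Dnajb1 and residue 34 of Dnaja1. In the type C members Dnajc22 and Dnajc6 it began at residue 305 and residue 932, close to the end of proteins of 339 and 968 residues.

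The families were abundant in both organs. Their summed level was 4983 FPKM in the injected MSM liver, 3948 FPKM in the untreated MSM liver, 4033 FPKM in the injected B6 liver and 3110 FPKM in the untreated B6 liver. In thymus the sums were 4091 and 2604 FPKM in the injected and untreated MSM mice and 2356 and 1909 FPKM in the injected and untreated B6 mice. In each strain and organ the injected mouse had the higher sum, and in each organ and treatment the MSM mouse did. A single gene, Hspa8, the constitutive cytosolic HSP70, made up 17.8% to 27.8% of the family sum in liver and 29.1% to 40.1% in thymus.

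Of the 73 members, 46 had at least 1 FPKM in every library and 69 had it in at least 1 library. The testis-type members Dnajb8, Dnajc5b and Dnajc5g were listed at 0 in all 8 libraries. In liver the highest means belonged to Hspa8, Hsp90b1 and Hspa5, and in thymus to Hspa8, Hsp90ab1 and Hsp90aa1. Among these, genes of the endoplasmic reticulum stood beside Hspa8 in liver, and the cytosolic HSP90 genes did in thymus. In liver Hsp90ab1 was close behind, with a mean of 351 FPKM against 373 FPKM for Hspa5. Its thymus mean was 356 FPKM. Hsp90b1, the HSP90 of the endoplasmic reticulum also known as GRP94, had 448 and 488 FPKM in the injected and untreated MSM livers and 527 and 390 FPKM in the injected and untreated B6 livers. Its thymus values were 108 and 104 FPKM in the MSM mice and 89.7 and 89.3 FPKM in the B6 mice. The liver and thymus ranges of Hsp90b1 did not overlap.

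After injection, Hspa1b, Hsph1 and Dnajb1 were at least 2-fold higher in the livers of both strains, and Hspa1b and Hsph1 were so in the thymi of both strains as well. Each group is 1 library, and the injected and untreated libraries were normalized by the authors in separate tables, so these differences have no replicate check and no test. Each is the injected minus the untreated value of log2(FPKM + 1), after centring the libraries of an organ, and the added 1 understates the change of low genes. In liver, 3 of 60 members were at least 2-fold higher in both strains, against 1.63% of 10950 genes, and 0 of 60 were at least 2-fold lower, against 1.27%. In thymus, 2 of 59 members were higher, against 0.267% of 11625 genes, and 0 were lower, against 0.422%. Over the members the median difference was 0.15 in MSM liver, 0.05 in B6 liver, 0.15 in MSM thymus and -0.03 in B6 thymus, against medians over all genes that the centring put near 0.

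Hspa1b (chr17:34956429-34959238, mm10) encodes the stress-inducible cytosolic HSP70. It had 22.4 FPKM in the injected MSM liver against 1.77 FPKM in the untreated MSM liver, and 6.18 FPKM in the injected B6 liver against 1.17 FPKM in the untreated B6 liver. In thymus it had 5.04 against 1.22 FPKM in MSM and 3.07 against 0.556 FPKM in B6, injected against untreated. Every injected library was above every untreated one. The liver values correspond to about 92 and 8 fragments in MSM and 29 and 5 in B6, a ratio of 12.7 (95% interval 6.14 to 30.1) and of 5.29 (2.02 to 17.4). In thymus the ratio was 4.13 (1.98 to 9.68) in MSM and 5.52 (2.09 to 18.3) in B6. These Clopper-Pearson intervals were computed from estimated, rounded fragment numbers and are not a test. They cover counting error only, not the error of the depth estimate, the division of fragments with Hspa1a or the difference between mice.

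Hspa1a (chr17:34969359-34972156), the neighbouring copy of the same gene, is 99.4% identical to Hspa1b over the coding sequence, with 11 differing positions in the alignment. Of its 1877 coding windows of 50 bases, 82.3% also occur in Hspa1b, so the division of fragments between the copies is uncertain. Hspa1a was listed at 6.61 FPKM in the injected MSM liver against 1.56 FPKM in the untreated one, and at 1.28 against 0.703 FPKM in the B6 livers. In thymus it was at 6.92 against 2.05 FPKM in MSM and 0.914 against 1.23 FPKM in B6. It was therefore higher after injection in both organs of MSM and in the B6 liver, and lower in the B6 thymus, where only about 8 and 12 fragments stood behind the values. Summed over both copies, which does not depend on the division, the level was 29.0 against 3.33 FPKM in MSM liver and 7.46 against 1.87 FPKM in B6 liver. In thymus the sum was 12.0 against 3.27 FPKM in MSM and 3.98 against 1.78 FPKM in B6. The sum was higher in the injected mouse in all 4 pairs, by 8.72-fold and 3.99-fold in MSM and B6 liver and by 3.66-fold and 2.23-fold in MSM and B6 thymus.

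Hsph1 (chr5:149616845-149636315) encodes HSP110, the nucleotide exchange factor of HSP70. In liver it had 50.9 FPKM in the injected MSM mouse against 20.6 FPKM in the untreated one, and 30.2 against 9.29 FPKM in the B6 mice. The thymus values were 84.8 against 24.5 FPKM in MSM and 27.3 against 10.2 FPKM in B6. The difference was 1.22 and 1.54 in MSM and B6 liver and 1.64 and 1.30 in MSM and B6 thymus. Each injected library was above every untreated library of both organs.

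Dnajb1 (chr8:83608175-83611903) is the main inducible DnaJ partner of cytosolic HSP70. In liver it had 31.8 against 12.0 FPKM in MSM and 21.6 against 5.90 FPKM in B6, injected against untreated. In thymus it had 42.6 against 34.9 FPKM in MSM and 26.5 against 26.4 FPKM in B6. The differences were 1.29 and 1.65 in liver and 0.17 and -0.04 in thymus, so only the livers passed the 2-fold mark. The test of the liver change against the thymus change, a limma fit over the 4 mice, gave a difference of 1.38 ± 0.37 (SE) with an adjusted p of 0.57, which did not pass the threshold of 0.05.

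That fit was the one test involving the injection that the separate tables allowed. The scaling of a table cancels when thymus is subtracted from liver in the same mouse, though not fully for low genes, given the added 1. The fit asks only whether the liver and thymus changes differ, so a gene changed alike in both organs gives a small value. None of the 65 members tested passed it, against 0.0388% of 12880 genes, and 5 members had an unadjusted p below 0.05, against 974 of all genes. Besides Dnajb1, the largest differences were those of Hspb9, at -1.65 ± 0.61 (SE, adjusted p = 0.65), and Hspa2, at 1.29 ± 0.48 (SE, adjusted p = 0.65). Both are low genes, with at most 2.26 FPKM for Hspb9 and 4.84 FPKM for Hspa2 in any library. Hspb9 was at 0 FPKM in both injected livers, 1.10 FPKM in the untreated MSM liver and 0 FPKM in the untreated B6 liver. In thymus it was at 1.23 against 0 FPKM in MSM and 2.26 against 0.554 FPKM in B6. Hspa2, an HSP70 of the testis, had 4.84 against 0.498 FPKM in MSM liver and 2.35 against 1.54 FPKM in B6 liver, and 1.38 against 0.458 FPKM and 0.255 against 1.37 FPKM in MSM and B6 thymus. It was higher in the injected mouse in both organs of MSM and in B6 liver, and lower in B6 thymus. For Hspa1b the fit gave 0.99 ± 0.50, for Hsph1 -0.11 ± 0.38 and for Hspa5 -0.34 ± 0.40 (SE, adjusted p of 0.70, 0.97 and 0.87).

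**Figure D1:**
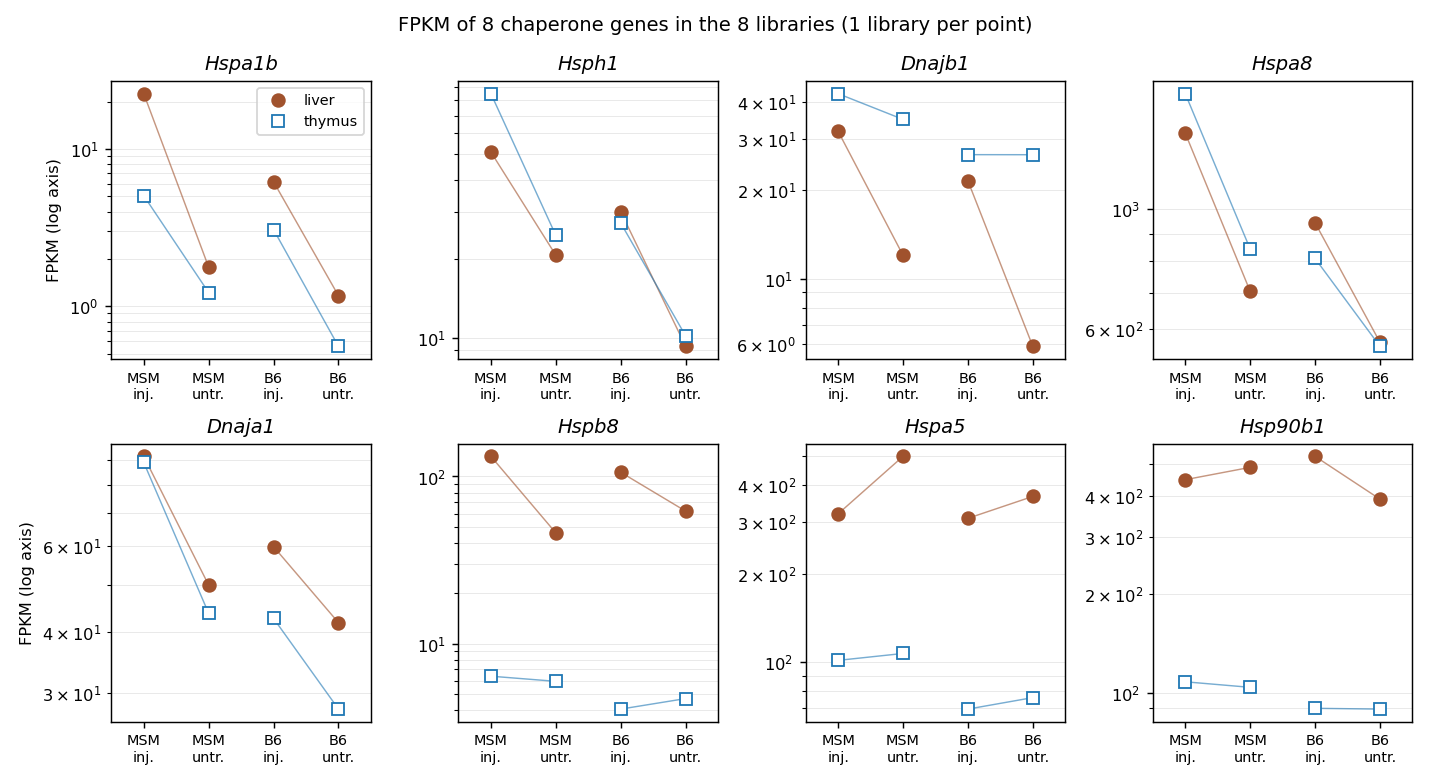
FPKM on log axes of 8 chaperone genes in each of the 8 libraries, with filled circles for liver, open squares for thymus and lines joining the injected (inj.) and untreated (untr.) mouse of a strain. Hspa1b, Hsph1, Hspa8, Dnaja1 and Dnajb1 are higher in the injected mouse in all 4 pairs, though Dnajb1 is almost level in B6 thymus. Hspb8 is higher in both livers and slightly in MSM thymus, and Hspa5 is lower in all 4.

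Below the 2-fold mark, directions were compared over the pairs of libraries. With a rule chosen after the values were seen, 8 of 56 members were higher in the injected mouse in all 4 pairs of libraries, against 7.51% of 9701 genes. They were Hspa1b, Hsph1, Hspa8, Hsp90aa1, Hsp90ab1, Dnaja1, Dnajb4 and the mitochondrial Hspd1. Dnajb1, Hspe1 and Dnajc5 were also higher in all 4 pairs in FPKM, but not after centring. Their centred values were -0.037 for Dnajb1 and -0.008 for Hspe1 in B6 thymus, and -0.036 for Dnajc5 in B6 liver. The share of all genes on the FPKM scale was not counted. Lower in all 4 pairs were Dnajb5, Dnajc28 and Hspa5, 3 of 56 against 8.96%. Of the 8 that were higher, 7 act in the cytosol, 5 of the 10 HSP70, HSP110 and HSP90 members and 2 of the 8 DnaJ members of types A and B measured in both organs.

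Hspa8 had 1385 against 704 FPKM in MSM liver and 943 against 566 FPKM in B6 liver, injected against untreated. Thymus held 1640 against 843 FPKM in MSM and 810 against 556 FPKM in B6. The injected mouse was higher in each of the 4 pairs. Dnaja1, the DnaJ partner of Hspa8 in the cytosol, had 91.3 against 49.9 FPKM and 59.7 against 41.8 FPKM in MSM and B6 liver, and 88.7 against 43.7 FPKM and 42.6 against 27.8 FPKM in MSM and B6 thymus. The ratio of injected to untreated was 1.97 and 1.67 in MSM and B6 liver for Hspa8 and 1.83 and 1.43 for Dnaja1.

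The cytosolic HSP90 genes were also higher in the injected mouse in each pair. Hsp90aa1, the inducible form, had 194 against 151 FPKM in MSM liver and 114 against 108 FPKM in B6 liver, and 433 against 205 FPKM and 222 against 168 FPKM in MSM and B6 thymus. Hsp90ab1, the constitutive form, had 446 against 360 FPKM and 378 against 221 FPKM in liver, and 544 against 365 FPKM and 321 against 196 FPKM in thymus. Of these, Hsp90aa1 in MSM thymus exceeded 2-fold in FPKM, at a ratio of 2.11, and that pair holds the untreated MSM thymus that stood apart. Among the 11 cytosolic HSP70, HSP110 and HSP90 members with enough signal in liver, 8 were above 0 in both strains, with medians of 0.31 and 0.49 in MSM and B6. In thymus 6 of 10 were, with medians of 0.84 and 0.28. Of the 8 cytosolic DnaJ members of types A and B, 3 in liver and 2 in thymus were above 0 in both strains. Over all genes the share above 0 in both strains was 27.6% in liver and 22.9% in thymus.

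None of the 13 endoplasmic reticulum members was higher in all 4 pairs, against 7.51% of 9701 genes. The 11 other type C members and 4 small heat shock proteins measured in both organs also had 0. Hspa5 (chr2:34772090-34776529), the BiP gene, had 319 against 500.1 FPKM in MSM liver and 308 against 366 FPKM in B6 liver, injected against untreated. The thymi had 102 against 107 FPKM in MSM and 69.4 against 75.9 FPKM in B6. The differences were -0.69 and -0.31 in liver and -0.19 and -0.17 in thymus, all below the 2-fold mark. Of the 13 members of this compartment, 2 in liver (Dnajc16 and Dnajb12) were above 0 in both strains, as were 2 in thymus, and 0 reached 2-fold in both. Their medians were -0.29 and 0.05 in MSM and B6 liver and 0.00 and -0.11 in MSM and B6 thymus. Dnajb9, also called ERdj4, which unfolded protein induces in the endoplasmic reticulum, had 47.4 against 59.8 FPKM and 34.4 against 47.2 FPKM in MSM and B6 liver, and 14.5 against 11.1 FPKM and 6.42 against 12.4 FPKM in MSM and B6 thymus. It was lower in the injected mouse in 3 pairs and higher in MSM thymus.

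Mitochondrial members were uneven between organs. The medians of the 10 genes were 0.30 and 0.20 in MSM and B6 liver and -0.21 and -0.02 in MSM and B6 thymus. Hspd1 and Hspe1, which encode the chaperonin HSP60 and its lid HSP10, lie head to head on chromosome 1 (chr1:55077834-55087932 and chr1:55088148-55091317). Hspd1 had 335 against 271 FPKM and 255 against 198 FPKM in MSM and B6 liver, and 128 against 95.1 FPKM and 68.9 against 61.0 FPKM in MSM and B6 thymus. Hspe1 had 310 against 240.0 FPKM and 246 against 138 FPKM in liver, and 166 against 103 FPKM and 67.1 against 65.6 FPKM in thymus. Both genes were higher in each injected mouse in FPKM, by less than 2-fold.

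Of the small heat shock proteins, Hspb8, which works with Bag3 in selective autophagy of misfolded protein, was higher after injection in both livers. It had 132 against 45.9 FPKM in MSM liver and 106 against 62.0 FPKM in B6 liver, a ratio of 2.87 and 1.71. In thymus it had 6.38 against 5.94 FPKM in MSM and 4.05 against 4.68 FPKM in B6. The muscle-associated Hspb2, Hspb3 and Hspb7 were near 0, and their highest values, 1.99, 1.22 and 1.79 FPKM, were all in the untreated MSM thymus, the library in which all 18 muscle markers reached at least 1 FPKM. Hspb2 was also at 1.91 FPKM in the untreated B6 liver, where the muscle markers summed to 5.71 FPKM. In B6 thymi the muscle markers summed to 21.3 and 29.9 FPKM in the injected and untreated mouse, and Hspa1b and Hsph1 differed by 1.37 and 1.30. Brown and white fat markers were also highest in the untreated MSM thymus, at 1518.5 FPKM against 195 to 282 FPKM in the other thymi. The part of muscle, fat and other such cells in the thymus values was not tested.

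**Figure D2:**
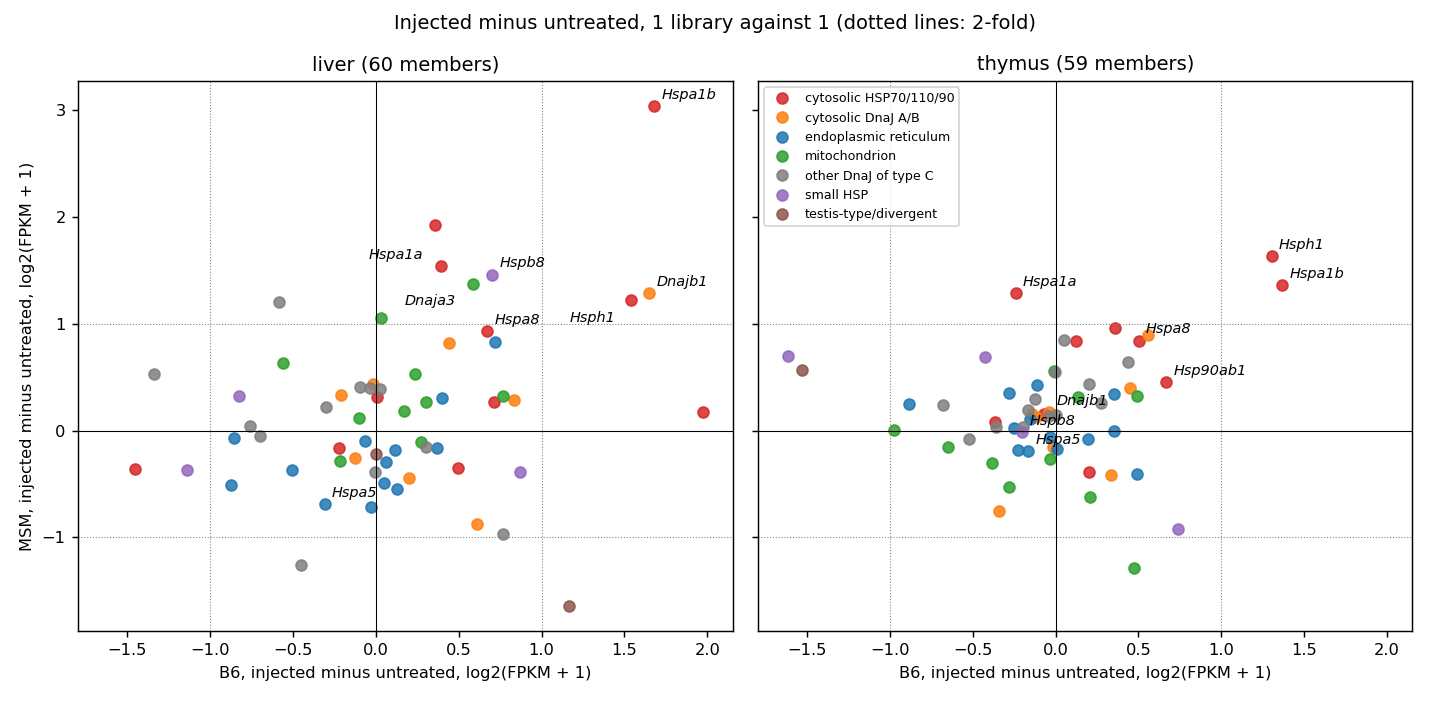
Injected minus untreated difference in log2(FPKM + 1) of each member, in MSM on the vertical axis and B6 on the horizontal axis, for 60 members in liver (left) and 59 in thymus (right), with dotted lines at 2-fold and colours for compartment or class. Hspa1b, Hsph1 and Dnajb1 lie beyond 2-fold in both strains in liver, Hspa1b and Hsph1 in thymus, and the endoplasmic reticulum members lie around 0.

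The partners of these chaperones were read from lists of other genes. Over all genes, 1.63% in liver and 0.267% in thymus were at least 2-fold higher in both strains, and 1.27% and 0.422% were lower. Of 30 cytosolic co-chaperones and heat shock factors with enough signal in liver, 2 were at least 2-fold higher in both strains and 0 lower. Fkbp5, an HSP90 co-chaperone that binds steroid receptors, had 89.5 against 5.07 FPKM in MSM liver and 45.4 against 9.95 FPKM in B6 liver, and Bag3, the partner of Hspb8, had 18.1 against 6.04 FPKM and 9.99 against 3.05 FPKM. In thymus Fkbp5 alone of 30 passed, with differences of 1.38 and 1.26 in MSM and B6. Of 37 genes of folding and stress in the endoplasmic reticulum, 1 in liver passed, Herpud1, with 524 against 119 FPKM and 249.7 against 113 FPKM in MSM and B6, and 0 of 36 did in thymus. Of 16 mitochondrial folding genes, Hscb was higher and Clpx lower in both livers. Hscb was a low gene, with 5.29 against 1.92 FPKM in MSM liver and 1.85 against 0 FPKM in B6 liver. The differences were -2.46 and -2.59 for Clpx, a subunit of the mitochondrial ClpXP protease. Among 15 chaperonin and prefoldin genes in liver, 0 were higher and Pfdn4 was lower, and in thymus 0 passed in either direction.

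Liver and thymus were compared within mice, in a limma fit with the mouse as a block over all 8 libraries and Benjamini-Hochberg adjustment over 12880 genes. Genes of the endoplasmic reticulum and the mitochondrion rose in liver, and most type C DnaJ genes with nuclear, ribosomal or vesicular roles fell. Of 65 members tested, 25 were higher in liver, against 28.6% of all genes, 14 were lower, against 32.1%, and 26 did not pass. The median difference was 0.32 over the members and -0.13 over all genes. With the libraries scaled to a common sum (TPM), all genes shifted to a median of -1.05, and the split became 13 higher and 30 lower, 30.2% of the members called being higher against 64.1% as deposited. Relative to all genes the members' median was 0.45 higher as deposited and 0.33 higher with the common sum, so directions below are relative to the deposited scale. Without the untreated MSM mouse, whose thymus stood apart, 26 members were higher and 13 lower.

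By compartment, 9 of 13 endoplasmic reticulum members rose in liver and 1, Dnajc1, fell, with a median of 1.20. Among the 10 mitochondrial members 9 rose and 0 fell, with a median of 1.48. The exception was Dnajc15, which did not pass. Of 12 cytosolic HSP70, HSP110 and HSP90 members 0 rose and 3 fell, namely Hsp90aa1, Hspa4l and Hspa14. Among 8 cytosolic DnaJ genes of types A and B, Dnajb2, Dnajb4 and Dnajb6 rose and Dnajb1 fell. Of 14 other type C genes 2 rose and 8 fell, with a median of -0.74. Of 5 small heat shock proteins tested Hspb8 rose and Hspb11 fell, and of 3 testis-type or divergent genes tested Dnajb3 rose. Dnajb3 had 2.34 and 9.22 FPKM in the injected and untreated MSM livers and 4.77 and 1.49 FPKM in the B6 livers, and was listed at 0 in all thymi, but its deposited locus (chr1:88055411-88220002) also covers the Ugt1a genes of liver, and how fragments were divided there was not tested. The other 8 of the 73 members did not reach the filter of a mean of 1 FPKM in either organ.

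The largest rise in liver was that of Dnajc22 (chr15:99099484-99104707), a membrane DnaJ protein. It had 70.7 and 90.3 FPKM in the injected and untreated MSM livers and 86.9 and 83.6 FPKM in the injected and untreated B6 livers. In thymus it was listed at 1.69 FPKM in the untreated MSM mouse, the thymus library with the highest hepatocyte markers, and at 0 in the other 3 mice. Any link between that value and those markers was not tested. The difference was 6.03 ± 0.28 (SE, adjusted p = 6.6e-05), and the organs did not overlap. Without the untreated MSM mouse it was 6.34.

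Hspb8 followed, with 45.9 to 132 FPKM in the 4 livers against 4.05 to 6.38 FPKM in the 4 thymi, a difference of 3.70 ± 0.30 (SE, adjusted p = 0.00019). Dnajb2, a DnaJ protein that sorts clients to the proteasome, had 18.3 and 24.5 FPKM in the injected and untreated MSM livers, and 25.0 and 20.7 FPKM in the B6 livers. In thymus it had 4.66 and 6.06 FPKM in MSM and 2.67 and 1.85 FPKM in B6, a difference of 2.34 ± 0.27 (SE, adjusted p = 0.00068). Hsp90b1 differed by 2.23 ± 0.18 and Hspa5 by 2.06 ± 0.19 (SE, adjusted p of 0.00019 and 0.00028). These genes showed no overlap between organs.

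Dnaja3, the mitochondrial DnaJ protein known as Tid1, differed by 2.20 ± 0.30 (SE, adjusted p = 0.0014). It had 95.8 and 35.3 FPKM in the injected and untreated MSM livers and 37.9 and 23.8 FPKM in the B6 livers, against 9.37 and 10.6 FPKM in MSM thymi and 6.96 and 6.95 FPKM in B6 thymi. The injected MSM liver was far above the other livers. Its partner in the mitochondrial matrix, Hspa9 or mortalin, had 162 to 253 FPKM in liver and 33.8 to 61.8 FPKM in thymus, with no overlap.

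On the thymus side, Dnajc6 (chr4:101496648-101642799) encodes auxilin, which with Hspa8 strips clathrin from vesicles. It was listed at 0 in 3 livers and at 0.618 FPKM in the untreated B6 liver, the liver library with the highest thymocyte markers. Whether that value is linked to those markers was not tested. The thymi had 14.5 and 12.0 FPKM in the injected and untreated MSM mice and 14.1 and 13.7 FPKM in the B6 mice. The difference was -3.69 ± 0.23 (SE, adjusted p = 8.9e-05). Dnajc9, which chaperones histones, had 0.445 and 2.43 FPKM in the injected and untreated MSM livers and 4.28 and 5.96 FPKM in the B6 livers. Its thymus values were 31.9 and 26.8 FPKM in MSM and 24.7 and 24.8 FPKM in B6, a difference of -2.92 ± 0.44 (SE, adjusted p = 0.0019).

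Hspa14, a ribosome-bound HSP70, had 3.15 to 9.96 FPKM in liver and 16.2 to 27.5 FPKM in thymus, a difference of -1.68 ± 0.24 (SE, adjusted p = 0.0016). By mouse, its liver values were 5.60 and 7.27 FPKM in the injected and untreated MSM mice and 3.15 and 9.96 FPKM in the B6 mice, and its thymus values 27.5 and 23.8 FPKM in MSM and 16.2 and 20.6 FPKM in B6. Dnajc7, which holds both HSP70 and HSP90, had 16.9 and 18.3 FPKM in the MSM livers and 12.1 and 9.23 FPKM in the B6 livers, against 42.7 and 32.7 FPKM in MSM thymi and 40.9 and 32.7 FPKM in B6 thymi. It differed by -1.37 ± 0.21 (SE, adjusted p = 0.0022), and the organs of neither gene overlapped.

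Hspb11, also called Ift25, is a component of cilia transport rather than a typical chaperone. It had 10.7 and 8.10 FPKM in the injected and untreated MSM livers and 1.56 and 3.41 FPKM in the B6 livers, against 23.4 and 12.9 FPKM in MSM thymi and 8.31 and 26.8 FPKM in B6 thymi. The difference was -1.55 ± 0.35 (SE, adjusted p = 0.011), though the injected MSM liver was above the injected B6 thymus.

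Of the cytosolic genes described above, Dnajb1 fell in liver by 1.04 ± 0.33 (SE, adjusted p = 0.033), and Hsp90aa1 by 0.79 ± 0.20 (SE, adjusted p = 0.014). Both calls depended on the mice: without the untreated MSM mouse Dnajb1 had an adjusted p of 0.086, without the untreated B6 mouse 0.10, and Hsp90aa1 had 0.051 without the injected MSM mouse and 0.065 without the injected B6 mouse. Hspa1b at 0.89 ± 0.32 (adjusted p = 0.0503), Hsph1 at -0.24 ± 0.20 (adjusted p = 0.32), Hspa8 at -0.06 ± 0.22 (adjusted p = 0.81) and Hsp90ab1 at 0.03 ± 0.19 (SE, adjusted p = 0.91) did not pass. With the common sum, Hsph1, Hspa8 and Hsp90ab1 fell in liver, by 1.29, 1.14 and 1.05.

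**Figure D3:**
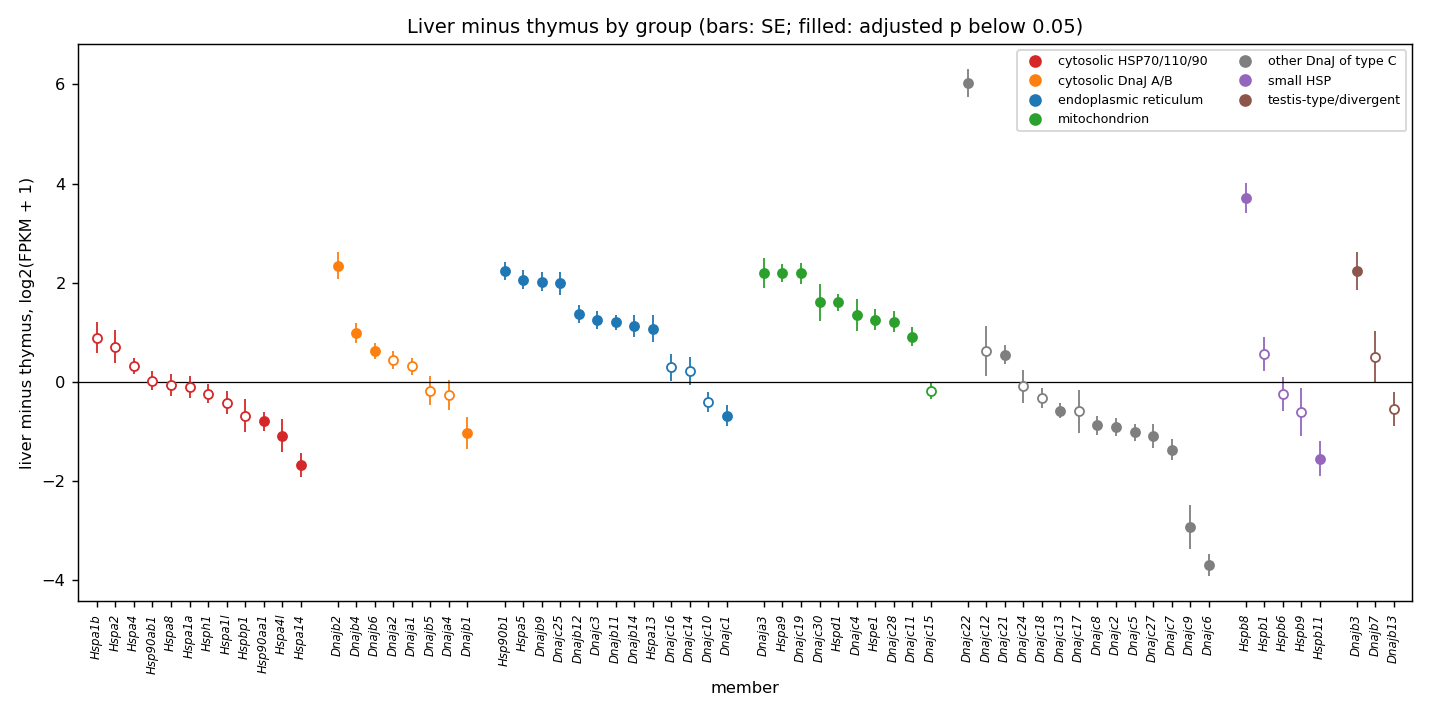
Liver minus thymus difference in log2(FPKM + 1), on the vertical axis, of the 65 members tested, grouped by compartment or class and ordered within each, with SE bars and filled points where the adjusted p was below 0.05. On the deposited scale 9 of 13 endoplasmic reticulum and 9 of 10 mitochondrial members lie above 0 and passed, while 8 of 14 other type C members lie below 0 and passed, and with a common sum all genes shift down by about 1.

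The other folding genes of the same compartments were counted in the same fit. Of 37 genes of the endoplasmic reticulum list, 25 rose in liver and 2 fell, with a median of 1.31, led by Herpud1 at 3.52 ± 0.44, Pdia5 at 3.42 ± 0.21 and the protein disulfide isomerase P4hb at 3.32 ± 0.19 (SE, adjusted p of 0.00091, 9.2e-05 and 8.2e-05). Of 16 mitochondrial folding genes 11 rose and 0 fell, with a median of 0.98, led by Clpx at 2.56 ± 0.46 and the protease Lonp1 at 1.97 ± 0.20 (SE, adjusted p of 0.0041 and 0.00041). Cytosolic co-chaperones were divided, with 8 of 31 higher and 5 lower and a median of 0.20. Of 15 chaperonin and prefoldin genes 1 was higher and 3 were lower.

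Between strains, MSM was compared with B6 within each organ with treatment as a block, which left 1 residual degree of freedom. More members were above B6 in MSM than below in each organ, 38 of 60 in liver, against 50.6% of all genes, and 42 of 61 in thymus, against 52.9%, but no member passed the adjusted threshold in limma. In liver 0 of 60 members passed this limma test, against 1.47% of 10971 genes, and in thymus 0 of 61, against 0.973% of 11610 genes. At an unadjusted p below 0.05 there were 11 members in liver, where 16.2% of all genes were, and 11 in thymus, where 13.0% were. The median difference over the members was 0.17 in liver and 0.26 in thymus, against 0.01 and 0.03 over all genes.

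The direction was nonetheless shared among pairs of libraries. By a rule chosen after the values were seen, 21 of 56 members were above B6 in MSM in all 4 pairs, against 11.7% of 9701 genes, and 4 were below in all 4, against 11.1%. The 21 held Hspa1a, Hspa1b, Hspa8, Hsph1, Hsp90aa1, Hsp90ab1, Dnaja1 and Dnajb1 of the cytosol, Hspa5 and Hspa13 of the endoplasmic reticulum, and Hspd1, Hspe1, Hspa9 and Dnaja3 of the mitochondrion. Of the 11 cytosolic HSP70, HSP110 and HSP90 members tested in each organ, 10 had a positive difference, with a median of 0.43 in liver and 0.54 in thymus. The mitochondrial members had 8 of 10 positive in each organ, and the endoplasmic reticulum members 8 of 13 in liver and 10 of 13 in thymus. Of the cytosolic DnaJ members of types A and B, 3 of 8 were positive in liver, with a median of -0.09, and 5 of 8 in thymus, and of the other type C members 5 of 12 in liver and 5 of 13 in thymus. Each strain and treatment is 1 mouse, so strain and mouse cannot be told apart, and both organs come from the same 4 animals. The thymus differences include the untreated MSM thymus, which stood apart in hepatocyte, airway, muscle and fat markers. The part of those tissues in the thymus strain differences was not tested.

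Hsph1 came closest to the threshold in thymus, at 1.40 ± 0.24 (SE, adjusted p = 0.069). Its FPKM was 84.8 in MSM against 27.3 in B6 after injection and 24.5 against 10.2 without it. In liver the difference was 0.90 ± 0.24 (SE, adjusted p = 0.20). It was higher in MSM in all 4 pairs. Other large thymus differences were those of Dnajc28, at -1.56 ± 0.58 (SE, adjusted p = 0.35), and Dnajc4, at 1.34 ± 0.38 (SE, adjusted p = 0.23).

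Dnajc28, a mitochondrial DnaJ protein, had 1.21 and 1.64 FPKM in the injected and untreated MSM livers against 5.90 and 6.73 FPKM in the B6 livers. In thymus it was at 0 and 0.112 FPKM in MSM against 1.50 and 2.84 FPKM in B6. Its liver difference of -1.60 ± 0.34 had the lowest adjusted p of the members there, 0.13 (SE). Dnajc4 had 6.04 and 5.55 FPKM in the MSM thymi against 0.930 and 2.73 FPKM in the B6 thymi, and 13.96 and 9.06 against 9.59 and 7.64 FPKM in the livers. Dnajc28 was thus lower and Dnajc4 higher in MSM in every pair.

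In liver the members of largest strain difference were Dnajc12, Dnajb7 and Hspb11. Dnajc12, a cytosolic partner of aromatic amino acid hydroxylases, had 1.34 and 0 FPKM in the injected and untreated MSM livers against 5.11 and 7.84 FPKM in the B6 livers, a difference of -2.27 ± 0.54 (SE, adjusted p = 0.16). In thymus its values were close, at 1.69 and 0.652 FPKM in MSM and 1.64 and 0.916 FPKM in B6. Dnajb7, a testis-type gene, had 1.94 and 2.35 FPKM in the MSM livers and was listed at 0 in both B6 livers, a difference of 1.65 ± 0.48 (SE, adjusted p = 0.22). In thymus it was listed at 0 in both MSM mice and at 0.301 and 0.884 FPKM in the B6 mice. Hspb11 differed by 1.62 ± 0.40 (SE, adjusted p = 0.17) in liver. Reads of MSM carry more differences from the mm10 sequence than those of B6, and the part of this in the strain differences was not tested.

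For the remaining markers, the liver difference was 1.03 ± 0.43 for Hspa1b, 0.73 ± 0.26 for Dnajb1 and 0.25 ± 0.20 for Hspa5 (SE, adjusted p of 0.34, 0.28 and 0.60). The thymus difference was 0.54 ± 0.38 for Hspa1b, 0.53 ± 0.23 for Dnajb1 and 0.52 ± 0.23 for Hspa5 (SE, adjusted p of 0.61, 0.41 and 0.42). In Hspa1b the liver strain difference was uneven between treatments, at 1.71 in the injected pair and 0.35 in the untreated pair.

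**Figure D4:**
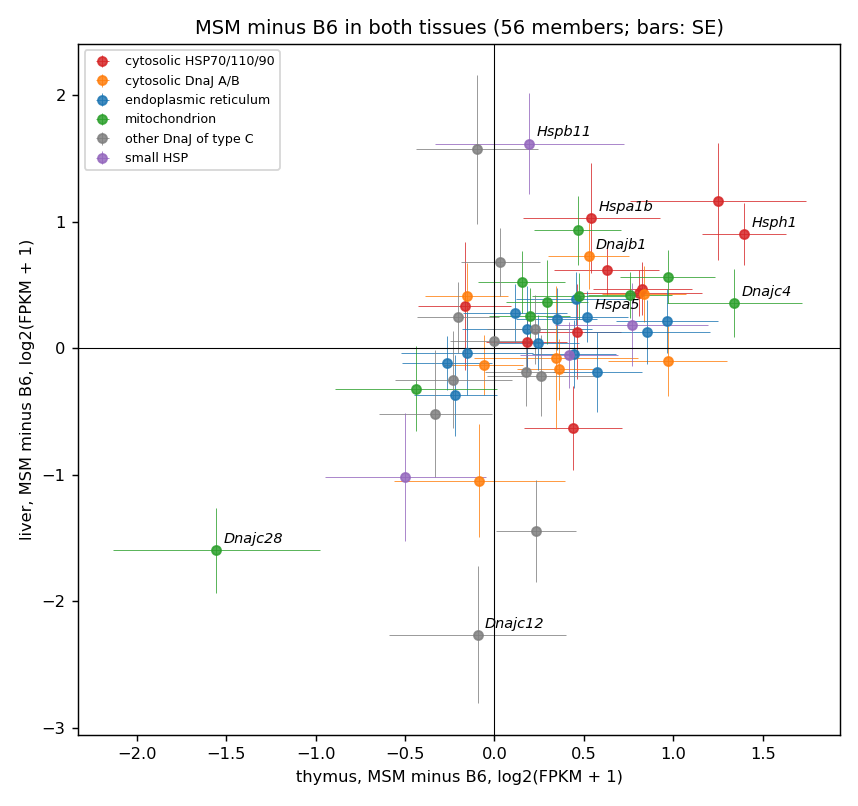
MSM minus B6 difference in log2(FPKM + 1) of 56 members tested in both organs, in liver on the vertical axis and thymus on the horizontal axis, with SE bars and colours for compartment or class. Most cytosolic HSP70, HSP110 and HSP90 and mitochondrial members lie above and to the right of 0, Hsph1 lies farthest right and Dnajc28 is below 0 in both.

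The 4 mice took the same order in liver and thymus for 5 of 56 members, Hspa1b, Hsph1, Hspd1, Dnajc18 and Dnajc28, against 6.23% of 9701 genes, by a rule chosen after the values were seen. That count was close to the share over all genes. For Hspa1b and Hsph1 the order from highest to lowest was the injected MSM mouse, the injected B6 mouse, the untreated MSM mouse and the untreated B6 mouse in both organs. For Hspd1 the untreated MSM mouse stood above the injected B6 mouse instead. The span from the lowest to the highest library was 40.3-fold for Hspa1b, 9.13-fold for Hsph1 and 2.95-fold for Hspa8.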

How the data were processed

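Polyadenylated RNA of liver and thymus was prepared with a TruSeq kit, per the labels. The authors deposited FPKM values per gene, made with TopHat and Cuffdiff 2.2.1 on mm10, per the submitters' processing notes, in 1 table for the injected and 1 for the untreated mice. Annotation and settings are not given in the sources used here. Cuffdiff's own lower bound is 0 for all 584 member values in the authors' deposited tables.

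Members and lists were chosen with earlier results of these data known. Loci are those of the deposited tables, written 1-based. FPKM was taken as log2(FPKM + 1), with a mean of at least 1 FPKM as filter, and tested with limma 3.58.1 in R 4.3.3 with a mean trend, two-sided, adjusted by Benjamini-Hochberg over all genes. The fits were checked on simulated data. Liver minus thymus had the mouse as a block and 3 residual degrees of freedom, and the strain tests and the test of liver against thymus change had 1. Injected minus untreated in 1 organ was not tested: treatment coincides with the separately normalized tables, and a member counted when at least 2-fold in the same direction in both strains, after scaling by median ratios. No group has a second mouse, so no p-value measures the spread between like mice. In the strain tests the spread is that of the strain difference between the treatments. In the test of liver against thymus change it is that of the treatment effect between the strains. For liver minus thymus it is that between the 4 mice, which differ in strain and treatment. Depth was estimated from the steps between low FPKM values, of which 70.2% to 74.8% were whole fragments within 0.1. That share was too low for a test on recovered counts, and the intervals given for Hspa1b are approximate.

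Values in every library are given for the markers Hspa1b, Hsph1, Dnajb1 and Hspa5, for members past 2-fold after injection, for the 5 largest liver minus thymus differences each way with a mean of at least 5 FPKM, for the 3 largest in each test that none passed, and for the 3 highest in each organ. Others are given for their role, after their values were seen. The rules over all 4 pairs of libraries were also chosen after the values were seen, and used the centred values. Coding sequences came from GENCODE M21.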

Additional observations from a re-analysis of the deposited data

Results flagged for a closer look

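Of 56 members measured in both organs, the injected minus untreated difference had opposite signs in liver and thymus, alike in both strains, for 5, against 11.5% of 9701 genes, and opposite signs in MSM and B6, alike in both organs, for 8, against 12.2%. Both counts were close to the share over all genes, so they do not set the members apart. The 4 of these whose values in every library are described are given here, on the centred log2(FPKM + 1) scale, with 1 library against 1 in each. The difference between the organs or strains was not tested for these pairs.

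Dnaja3, the mitochondrial DnaJ protein, was higher after injection in liver, by 1.38 in MSM and 0.58 in B6. In thymus it had -0.27 in MSM and -0.033 in B6. Hspb8, the small heat shock protein that works with Bag3, had 1.46 and 0.70 in MSM and B6 liver. Its thymus values were -0.011 and -0.20 in MSM and B6. The negative signs of Dnaja3 in B6 thymus and Hspb8 in MSM thymus came from the centring. In FPKM, injected against untreated, these pairs were 6.96 against 6.95 and 6.38 against 5.94. In the limma fit of the liver change against the thymus change, Hspb8 had 1.17 ± 0.36 (SE, adjusted p = 0.59) and Dnaja3 had 1.11 ± 0.40 (SE, adjusted p = 0.64).

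For Dnajb2 and Hspb11 the sign differed between the MSM and B6 pairs. Dnajb2 had -0.44 in MSM liver and -0.41 in MSM thymus, against 0.20 in B6 liver and 0.34 in B6 thymus. Hspb11 had 0.32 in MSM liver and 0.70 in MSM thymus, against -0.83 in B6 liver and -1.62 in B6 thymus. The untreated MSM thymus, which holds markers of other tissues, enters each MSM thymus value.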

How the results depend on the processing

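Across 12 alternatives the members called higher in liver than in thymus numbered 22 to 26, and those lower 10 to 14, except with the common sum (TPM), where they were 13 and 30 and Hsp90ab1 turned to -1.05 (adjusted p = 0.0051). Leaving out each mouse gave 22 to 26 higher and 10 to 13 lower. In those fits Hsp90ab1 ranged from -0.045 to 0.13 and Hspa8 from -0.16 to 0.00025. The strain tests called 0 members in either organ, except Hsph1 alone in thymus with 0.1 added to FPKM or a filter of 5 FPKM (1 member each). Leaving out single libraries, with no treatment block, sets unequal shares of injected mice against each other, so its values do not bear on how stable a strain difference is. There Dnajb1 ranged from -0.13 to 1.58, Hspa1b from -0.51 to 2.57 and Hspa5 from -0.073 to 0.57 in liver, and Hspa1b from -0.18 to 1.26 in thymus, while all 3 genes were above B6 in MSM in each of the 4 pairs of the same treatment. In the test of liver against thymus change 0 members passed under any alternative, and Hsph1 ranged from -0.55 to 0.32 without single mice, in fits with strain left out that are unbalanced in the same way. The cause of the other shifts was not tested.

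At 2-fold in both strains, 3 members were higher in liver under every alternative except 5 added to FPKM, which left 2, and 1.5-fold, which gave 6. In thymus the 2 became 1 with 5 added or a filter of 5 FPKM, and 3 with no filter, no centring or TPM, where the low gene Hspb9 joined. Another alternative, added after seeing the data, counted 2-fold differences in 1 strain alone, over 60 members in liver and 59 in thymus. Liver had 9 higher and 2 lower members in MSM and 5 higher and 3 lower in B6. Thymus had 3 higher and 1 lower in MSM and 2 higher and 2 lower in B6. Of all 10950 genes in liver, 6.65% passed 2-fold upward in MSM and 6.47% in B6. Of 11625 genes in thymus, 1.84% and 2.11% did in MSM and B6. The all-gene share for the downward direction was not counted. The comparison of motif counts in promoters was not run. No paired analysis was possible because each group holds 1 library, other than the mouse block of liver and thymus. With no mouse block, 24 members were higher and 12 lower in liver, and Dnajb1 and Hsp90aa1 no longer passed (adjusted p of 0.065 and 0.056 in limma). Single mice and low fragment counts for Hspa1a, Hspa1b and the small heat shock proteins limit what can be read.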
